A study of Mus musculus with 333 samples.

Results

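Astrocytes were 85 of the 333 single cells profiled from mouse brain, chosen by the submitters' cell type label, which reads Astrocyte. All mice were wild type, and the labels name no treatment. The 85 cells form 6 sets by title. At embryonic day 18.5 (E18.5) there were 2 cells of visual cortex and 17 titled mThal, which keep that name here although their source field reads visual cortex. Postnatal day 12 (P12) gave 21 cells of visual cortex, 19 of hippocampus and 16 of thalamus, and the adult gave 10 of visual cortex. The reference was 187 cells of 6 other named types: 70 neurons, 41 microglia, 34 endothelial cells, 16 oligodendrocyte precursor cells (OPC), 5 newly formed oligodendrocytes and 21 myelinating oligodendrocytes. Age and region differ between these types, since every labelled neuron was from E18.5 and no endothelial cell or oligodendrocyte was. Left out were 53 cells without a type label and 7 labelled purple. Each stage had 5 mice, but which mouse gave which cell is not stated, so each set and each type counts as 1 sample. Cells of a sample are not replicates, and the type labels may have been set from these same counts, so levels and spread are described without a test. How cells were gated in the sort before capture is not given in the sources used here.

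Astrocytes are glial cells that take up glutamate and potassium released by neurons, line blood vessels and the brain surface with water channels, and couple to each other through gap junctions. They supply neurons with lactate, glutamine and lipids, and secrete proteins that act on synapses and the matrix around them. They arise from radial glia under SOX and NFI transcription factors, and acquire most of these functions in the first weeks after birth.

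The astrocyte libraries ran from 374574 to 2875619 reads assigned to genes (median 1111913), and the genes detected in a cell from 1023 to 5270 (median 3086). Adult astrocytes were shallower, with medians of 594826.5 reads and 1666 genes. They also had fewer genes at equal depth. With 350000 reads drawn from each cell, the median was 1504 genes in the adult and 2671.5 to 3701.5 in the other sets. Expression is given as CPM, the usual scaling of reads to a common library total, for a single cell or pooled over a group of cells. Reads were not scaled by gene length, so a gene is compared here with itself across cells and types, and not with another gene. The libraries carry no molecular identifiers, and all intervals are 95% intervals. Those of pooled levels are exact Poisson and cover counting error only. The interval for a share of cells is exact Clopper-Pearson. It takes cells as independent draws, although cells of a sample are not replicates, and covers no spread between sets or mice. Unless E18.5 visual cortex is named, pooled levels by set are given for the other 5 sets, because it held only 2 astrocytes. Where a gene is said to be read in a number of cells, those cells held 10 CPM or more of it.

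The label was checked against 5 markers of astrocytes. Slc1a3 encodes the glutamate transporter GLAST, Aldoc the brain aldolase, Gja1 the gap junction protein connexin 43, Aqp4 the main water channel of the brain and Sox9 a transcription factor of the glial lineage. At 10 CPM or more, 58 of the 85 astrocytes carried all 5 markers (68.2%, interval 57.2% to 77.9%), 12 carried 4, 10 carried 3, 3 carried 2, 1 carried 1 and 1 carried none. In P12 thalamus all 16 astrocytes carried the 5 markers. Lower shares were found elsewhere, with 18 of 21 cells for the visual cortex and 14 of 19 for the hippocampus at P12, 5 of 10 in adult visual cortex, 5 of 17 in the E18.5 cells titled mThal and 0 of 2 in E18.5 visual cortex. Among the 187 other cells, 1 carried all 5 markers, a cell labelled Neurons (cell 70 of E18.5 visual cortex), and no other carried more than 3.

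Several labelled astrocytes stood apart and are named before the results that they touch. The cell without a marker at 10 CPM was cell 19 of the E18.5 set titled mThal, whose 5 markers summed to 5.54 CPM. In the same set, cell 35 carried Gja1 only. Its endothelial markers summed to 15222 CPM, with 3 of 12 at 10 CPM or more. Its pericyte markers summed to 10914 CPM, with 1 of 8 at that level. Cell 8 of that set carried Gja1 and Sox9, and its ependymal and choroid plexus markers summed to 83002 CPM, almost all from Ttr, the transthyretin gene that marks choroid plexus. Cell 50 carried Slc1a3 and Sox9. In adult visual cortex, cell 30 carried Slc1a3 and Gja1 and held 10457 CPM of pericyte markers, with 1 of 8 at 10 CPM or more. With a threshold of 25% of a class's median marker sum, 9 astrocytes carried markers of another class. These were 5 with neuron markers, 2 with endothelial markers, and 1 each with microglia and myelinating oligodendrocyte markers. At 10 CPM or more, the first 5 held from 1 to 7 of 12 neuron markers. The next 2 held 2 and 3 of 12 endothelial markers. The cell with microglia markers held 12 of 12, and the cell with myelinating oligodendrocyte markers 6 of 10. A sum can thus rest on 1 gene, and the neuron list includes Map2, which most astrocytes held. Cell 47 of the E18.5 set titled mThal had the largest such sum, 48120 CPM of myelin genes. Of the 9 cells, 5 were in that set. The same threshold marked 26 of the 187 other cells. All these cells stayed in, results were recomputed without them, and their part in the results was not tested except where a value without them is given.

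Slc1a3 was the marker read most widely. Over the 85 astrocytes it ranged from 0 through a median of 7850.1 to 38554 CPM, and 82 cells reached 10 CPM. Set medians were 9501 CPM in E18.5 visual cortex, 5947 in the E18.5 cells titled mThal, 14353 in P12 visual cortex, 14531 in P12 hippocampus, 4386 in P12 thalamus and 4794 in adult visual cortex. The P12 cortical and hippocampal cells were thus high and the P12 thalamic and adult cells low, with ranges that overlapped. Pooled, Slc1a3 stood at 10713 CPM (10693 to 10733) in astrocytes and 213 CPM in the other cells, a log2 ratio of 5.65. The transcript was not absent elsewhere, since 33 of 70 neurons, 19 of 41 microglia and 13 of 16 OPC also reached 10 CPM, with medians of 4.56 CPM in neurons and 329.7 CPM in OPC. The highest neuron, at 6775 CPM, was cell 70, the cell with all 5 markers.

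Aldoc ranged from 0 through a median of 4890.0 to 21177 CPM over the astrocytes, and 73 of 85 cells reached 10 CPM. Of the 12 cells below it, 8 were in the E18.5 set titled mThal, where the median was 1710.3 CPM. The set medians were 7237 CPM in P12 visual cortex, 9641 in P12 hippocampus, 4382 in P12 thalamus and 6004 in adult visual cortex. The pooled value was 6281 CPM (6265 to 6296) against 67.3 CPM in the other cells, a log2 ratio of 6.52. OPC had the highest level among the other types, 337 CPM.

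Gja1 ranged from 0 through a median of 5392 to 17759.7 CPM, and 78 cells reached 10 CPM. Its set medians were 413 CPM in the E18.5 cells titled mThal, 4872 in P12 visual cortex, 6875 in P12 hippocampus, 7679 in P12 thalamus and 4438 in adult visual cortex. The 2 astrocytes of E18.5 visual cortex held 0 and 14.6 CPM. The embryonic cells were low for this gene, although single cells titled mThal reached 5912 CPM and so overlapped the P12 range. The pooled values were 5415 CPM (5401 to 5430) in astrocytes and 54.3 CPM in the other cells, a log2 ratio of 6.61, with 272 CPM in endothelial cells as the highest.

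Aqp4 was the least even of the 5 markers. It ranged from 0 through a median of 1252 to 24589 CPM, 24 of 85 cells lay below 10 CPM and 17 had no read of it. Of the 24, 11 were E18.5 cells titled mThal, 5 were adult, 4 came from P12 hippocampus, 3 from P12 visual cortex and 1 from E18.5 visual cortex. All 16 cells of P12 thalamus lay at 286 CPM or more, with a median of 5665 CPM, against 1475 in P12 visual cortex, 1252 in P12 hippocampus, 91.5 in adult visual cortex and 0.621 in the E18.5 cells titled mThal. The pooled value was 3004 CPM (2994 to 3015) against 13.3 CPM in the other cells, a log2 ratio of 7.71. Sox9 was the most even across sets. It ranged from 0 through a median of 653 to 4617 CPM, 81 cells reached 10 CPM, and its set medians lay between 354 CPM in adult visual cortex and 985 CPM in E18.5 visual cortex. The pooled value was 864 CPM (859 to 870.0) against 32.4 CPM elsewhere, a log2 ratio of 4.70.

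**Figure D1:**
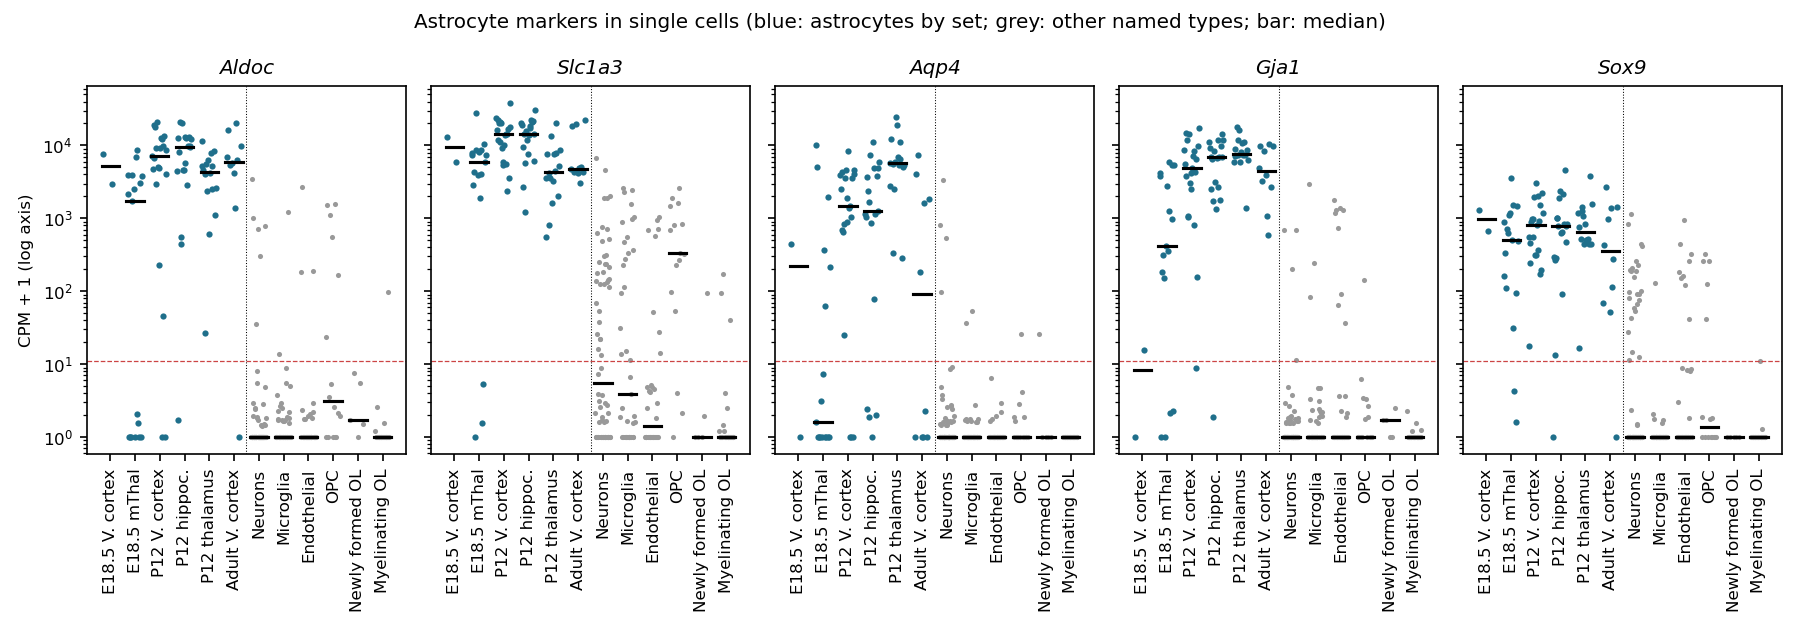
CPM + 1 of each marker (log axis) in every astrocyte, by set (blue), and in every cell of the 6 other named types (grey); bars are medians over cells and the dashed line is 10 CPM. Most astrocytes lie above 1000 CPM for Slc1a3 and Gja1, while Aqp4 is below the line in 24 astrocytes, 11 of them titled mThal at E18.5.

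Across the transcriptome, 10689 genes were measured, meaning that they reached 10 CPM pooled over the astrocytes or over the other cells. Before the log2 ratio 1 CPM was added on both sides, and a 2-fold difference was needed to count a gene as higher or lower. By this rule 2563 genes (24%) were higher in astrocytes and 2771 (25.9%) were lower, around a median log2 ratio of 0.0009 over all measured genes. TMM scaling moved all ratios by -0.28 and gave 2051 higher and 3371 lower genes, so the share of higher among called genes went from 48.05% to 37.8%. Without the 5 astrocytes with fewer than 3 markers the counts were 2528 higher and 2855 lower.

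A much smaller set of genes was shared by the 5 sets with 10 or more astrocytes. The astrocyte core was defined as genes at 50 CPM or more pooled over the 85 cells, read in at least 50% of them after each cell was thinned to 350000 reads, and at least 2-fold above each of the 6 other types, both pooled and in each of the 5 sets with 10 or more astrocytes. It held 52 of the 4307 genes at that level (1.21%), all 5 markers among them. The 2 astrocytes of E18.5 visual cortex were among the 85 cells of the rule, but were not required to pass as a set. In them 36 of the 52 were at least 2-fold above the highest other type, here without 1 CPM added. In the same cells 14 were at or below that type and 6 had no read. Since each core gene was chosen for being high in astrocytes, its direction is no finding. Its levels and spread are described. Without the 5 astrocytes with fewer than 3 markers the core held 58 genes, and 50 of the 52 were among them. Without the 9 astrocytes with markers of another class it held 53, with 48 shared. The E18.5 cells titled mThal were the set that limited it most: without them 79 genes qualified, among them all 52. At a 4-fold difference 28 genes qualified, and 24 qualified if a read was required in 80% of cells.

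An astrocyte had between 6 and 49 of the 52 core genes at 10 CPM or more, with a median of 40. The set medians were 44 in P12 visual cortex, 44.5 in P12 thalamus, 40 in P12 hippocampus, 34.5 in adult visual cortex and 31 in the E18.5 cells titled mThal. OPC had the highest median among the other types, 12, followed by newly formed oligodendrocytes with 6, neurons with 5, endothelial cells with 4, and microglia and myelinating oligodendrocytes with 3 each. For 17 core genes OPC were also the next highest type, for 15 it was neurons, for 10 endothelial cells, for 4 each microglia and myelinating oligodendrocytes, and for 2 newly formed oligodendrocytes. The lowest astrocyte was cell 19 of the E18.5 set titled mThal, with 6 core genes, and the lowest adult astrocyte was cell 30, with 8. Cell 70 of E18.5 visual cortex, labelled Neurons, had 41 core genes and 2322 CPM of neuron markers. Without it the core again held 52 genes.

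**Figure D2:**
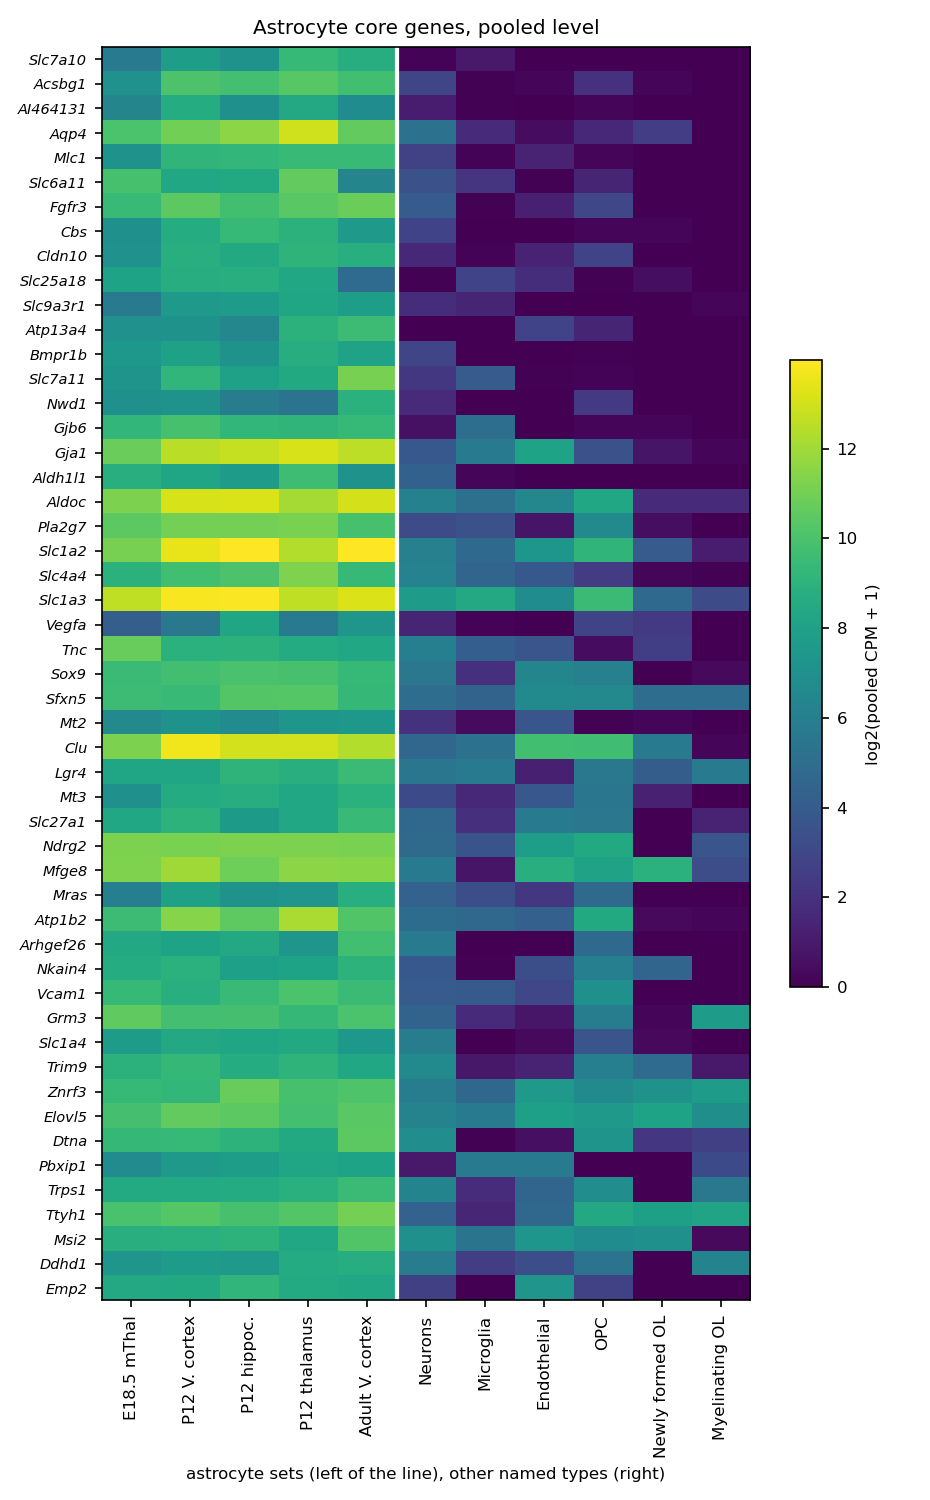
Pooled level, log2(CPM + 1), of the core genes (rows, with 1 of the 52 not drawn) in the 5 astrocyte sets with 10 or more cells (left of the white line) and in the 6 other named types (right), ordered by the log2 ratio to the highest other type. Slc7a10 at the top stood at 244 CPM in astrocytes and at most 0.962 CPM in another type, and Emp2 at the bottom at 417 and 153 CPM.

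The core genes with the widest margins over every other type included transporters, metabolic enzymes and a growth factor receptor. Slc7a10, which encodes the alanine, serine and cysteine transporter Asc-1, stood at 244 CPM pooled over astrocytes, 253-fold above microglia, the next type at 0.962 CPM. Acsbg1, an acyl-CoA synthetase of the bubblegum family, stood at 778 CPM, 121-fold above neurons, and AI464131, named in the files by its clone symbol, at 219 CPM, 185-fold above neurons. Mlc1, the membrane protein mutated in megalencephalic leukoencephalopathy, was 88.8-fold above the next type, Slc6a11, the GABA transporter GAT-3, 71.4-fold, Fgfr3, a fibroblast growth factor receptor, 66.9-fold, Cbs, the transsulfuration enzyme cystathionine beta-synthase, 65-fold, and Cldn10, a claudin, 58-fold. Slc25a18, a mitochondrial glutamate carrier, was 56.8-fold above microglia. For Mlc1, Slc6a11, Fgfr3 and Cbs the next type was neurons, at 5.69, 9.99, 15.9 and 5.96 CPM. At the other end, Emp2, Ddhd1 and Msi2 exceeded the next type by 2.73-fold, 2.96-fold and 2.97-fold.

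Upstream sequences of core genes are shown because the lineage factors SOX9 and NFIA, whose genes are described below, bind short known motifs. RefSeq promoters on GRCm38.p6 were found for 41 of the 52 core genes, and the 250 bases before each start were searched on both strands. The stretches shown belong to the markers Slc1a3 and Gja1, to Acsbg1, one of the genes with the widest margin, and to the upstream start of Cldn10. Each reads 5′ to 3′ in the direction of transcription. Capitals mark the NFI motif TTGGC or the SOX motif ACAAAG, on either strand.
Slc1a3, chr15:8710808-8711057, minus strand: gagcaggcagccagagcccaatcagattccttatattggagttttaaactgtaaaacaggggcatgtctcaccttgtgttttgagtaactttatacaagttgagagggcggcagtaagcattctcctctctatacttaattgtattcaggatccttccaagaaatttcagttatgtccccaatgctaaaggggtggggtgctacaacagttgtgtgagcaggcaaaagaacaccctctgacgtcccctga
Gja1, chr10:56377050-56377299, plus strand: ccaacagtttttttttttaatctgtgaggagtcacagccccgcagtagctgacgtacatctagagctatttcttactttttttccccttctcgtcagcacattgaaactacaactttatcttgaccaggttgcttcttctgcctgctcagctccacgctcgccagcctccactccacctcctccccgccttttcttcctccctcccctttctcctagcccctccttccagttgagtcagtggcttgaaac
Acsbg1, chr9:54661886-54662135, minus strand: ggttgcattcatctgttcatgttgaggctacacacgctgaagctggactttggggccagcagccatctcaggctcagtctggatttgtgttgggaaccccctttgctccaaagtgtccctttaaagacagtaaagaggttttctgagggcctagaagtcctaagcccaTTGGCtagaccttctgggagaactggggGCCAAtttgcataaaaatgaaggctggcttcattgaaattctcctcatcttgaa
Cldn10, chr14:118787621-118787870, plus strand: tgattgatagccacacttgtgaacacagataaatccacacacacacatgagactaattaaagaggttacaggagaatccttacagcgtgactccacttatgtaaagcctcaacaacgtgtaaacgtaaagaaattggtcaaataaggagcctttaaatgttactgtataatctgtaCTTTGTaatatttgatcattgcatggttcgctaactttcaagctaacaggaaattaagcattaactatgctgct
The stretches of Slc1a3 and Gja1 held neither motif, that of Acsbg1 held TTGGC from 82 bases before the start and its reverse complement from 54, and that of Cldn10 held the reverse complement of ACAAAG from 74.

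Over the 41 core genes with a promoter, TTGGC occurred on either strand in 21 (51.2%), against 45.3% of all 27025 genes in the RefSeq table. The full NFI palindrome, which is TTGGC and its reverse complement with 5 bases between them, occurred in none of the 41 and in 0.0444% of all genes. The SOX motif ACAAAG occurred in 5 core genes (12.2%) against 18.6% of all genes, and its variant ACAATG in 3 (7.32%) against 12.2%. A STAT motif, TTCNNNGAA, occurred in 5 (12.2%) against 8.13%, and the TATA box TATAAA in 5 (12.2%) against 14.3%. The core stretches had a median GC content of 59.2%, and all genes 52.4%. These shares describe letters in a window of fixed length, and a match is not a measured binding site.

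In the list for glutamate uptake, the transporter genes Slc1a2 and Slc1a3 were both higher in astrocytes than in the other cells. Members of this list and those below were chosen with earlier results of these data known, so their direction partly reflects the choice. Over all measured genes 24% were higher and 25.9% lower. Of 8 genes for glutamate uptake and the glutamine cycle, 5 were higher in astrocytes and 2 lower, with a median log2 ratio of 1.76. Slc1a2, the glutamate transporter GLT-1, was read at 10 CPM or more in 79 of 85 cells and stood at 9013 CPM against 91.8 CPM in the other cells. Its pooled level by set ran from 2169 CPM in the E18.5 cells titled mThal and 5226 in P12 thalamus to 11844 in P12 visual cortex, 16032 in adult visual cortex and 16034 in P12 hippocampus. Glud1, glutamate dehydrogenase, stood at 989.8 CPM against 113 CPM elsewhere. Glul, glutamine synthetase, had a smaller margin, 1159.6 CPM against 318 CPM over the other cells and 951 CPM in microglia. The glutamine carriers were split with endothelial cells. Slc38a3 stood at 646 CPM in astrocytes and 1315 CPM in endothelial cells, and Slc38a5 had no read in any astrocyte and 1035 CPM in endothelial cells, at least 5186-fold lower in astrocytes than in the other cells pooled if 3 reads are taken as the floor over the astrocytes.

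In the list for GABA, glycine and serine, 11 of 15 genes were higher and 1 lower, with a median log2 ratio of 2.81. Slc6a11, the GABA transporter GAT-3, stood at 713 CPM, and was highest in P12 thalamus (1564 CPM) and in the E18.5 cells titled mThal (940.0 CPM), with 333 CPM in P12 visual cortex, 363 in P12 hippocampus and 80.5 in adult visual cortex. Enzymes of the serine pathway were also higher. Phgdh, the entry enzyme from glycolysis, stood at 530.5 CPM against 68.3 CPM, and Psph, which releases serine, at 143 CPM against 44.3 CPM. Gldc, the decarboxylase of the glycine cleavage system, was read in 22 cells only, at 193 CPM pooled against 2.05 CPM. Shmt1, a serine hydroxymethyltransferase, was the lower member, at a log2 ratio of -1.76 that became 0.0975 without all named cells that carried markers of another class.

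Ion and water transport had the highest median of the lists named for a function, an order that depends on how members were chosen. Of 14 genes, 13 were higher and 1 lower, with a median log2 ratio of 3.42, and 6 belonged to the core. The set median was -2.82 in the 2 astrocytes of E18.5 visual cortex and 1.65 to 4.02 in the other sets. Atp1b2, a beta subunit of the sodium pump, stood at 2100.1 CPM against 44.1 CPM. Slc4a4, a sodium bicarbonate cotransporter, stood at 1081 CPM against 30.5 CPM. Kcnj10, the inward rectifier Kir4.1, was higher than in the other cells pooled (428 CPM against 181 CPM) but lower than in myelinating oligodendrocytes (682.5 CPM). Its partner Kcnj16 was read at 10 CPM or more in 18 astrocytes. Slc12a2, the chloride importer NKCC1, was the lower member, at 42.4 CPM against 203 CPM, with its highest level in newly formed oligodendrocytes. Of the connexins, Gja1 and Gjb6 (connexin 30) were higher, Gjb6 at 663 CPM and in 44 cells, while Gja4 had no read in astrocytes, and Gjc3, an oligodendrocyte connexin, stood at 10.9 CPM against 100.1 CPM. The connexin list had a negative median, -0.77, as Gja4 and Gjc3 were lower and Gjc1 stood at 19.6 CPM against 34.3 CPM. It ran from -1.37 to 6.42 over the 22 settings tried and was positive in 2 of them, a minimum of 50 CPM (6.42) and no minimum (0.94).

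Carbohydrate metabolism was less uniform. Among 24 measured genes of glycolysis, lactate and glycogen, 12 were higher and 2 lower, with a median log2 ratio of 0.96. Beside Aldoc, the largest ratios were those of glycogen genes. Ppp1r3c, a glycogen targeting subunit of protein phosphatase 1, stood at 344 CPM against 14.1 CPM, Pygb, brain glycogen phosphorylase, at 450.1 CPM against 29.3 CPM, and Gys1, glycogen synthase, at 47.8 CPM against 7.54 CPM. Of the phosphofructokinases, Pfkm was higher (249 CPM against 55.1 CPM), while Pfkp and Pfkl were not. The lactate and glucose carriers Slc16a1 and Slc2a1 stood at 122 and 85.5 CPM in astrocytes and at 1694 and 1347 CPM in endothelial cells. Fatty acid oxidation had 8 of 11 measured genes higher and 0 lower, with a median of 1.52. Hadha and Hadhb, which encode the mitochondrial trifunctional protein, stood at 191 CPM against 51.1 CPM and 269 CPM against 65.3 CPM.

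Lipid genes were higher over a broad front. In cholesterol synthesis 12 of 18 measured genes were higher and 0 lower, with a median log2 ratio of 1.30. The list median was negative in adult visual cortex (-0.97) and in the 2 astrocytes of E18.5 visual cortex (-3.80), and lay between 0.85 and 1.61 in the other 4 sets. Hmgcs1, the HMG-CoA synthase, stood at 90.6 CPM in the adult and 193 CPM in E18.5 visual cortex, and at 1166 to 2329 CPM in the other 4 sets. Sc5d, a sterol desaturase, stood at 6.95 and 29.1 CPM against 301 to 553 CPM. The adult cells also had fewer reads per cell, and fewer genes at equal depth, as given above. The part of either in this difference was not tested. Hmgcs1 was also high in newly formed oligodendrocytes, at 2038 CPM against 1599 CPM in astrocytes. In the list of lipid carriers and fatty acid synthesis, 13 of 17 were higher and 1 lower, with a median of 2.68. Apoe, the main lipoprotein of the brain, stood at 3606 CPM against 361 CPM and was read in 80 astrocytes, and Clu, the chaperone clusterin, at 7440.0 CPM against 194.5 CPM. Abcg1, a sterol exporter, was the lower member, with 108 CPM in astrocytes and 6456 CPM in myelinating oligodendrocytes.

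Of 20 antioxidant and detoxification genes, 12 were higher and 3 lower, with a median log2 ratio of 2.29. The set median was -0.57 in adult and -0.46 in E18.5 visual cortex. It was 0.46 in the E18.5 cells titled mThal and 1.76 to 2.94 at P12. Prdx6, a peroxiredoxin, stood at 1923 CPM against 134 CPM, and in the E18.5 cells titled mThal at 129 CPM against 1526 to 3131 CPM in the other 4 sets. The metallothioneins Mt1, Mt2 and Mt3 stood at 579, 122 and 318 CPM against 67.3, 2.84 and 7.99 CPM. Glutathione transferases Gstm1 and Gstm5 stood at 998 and 413 CPM against 106.5 and 70 CPM. Gpx1, Sod2 and Hmox1 were lower, Gpx1 at 70.5 CPM against 388 CPM and Hmox1, the heme oxygenase induced in phagocytes, at 5.58 CPM against 79.1 CPM. Aldh1a1, a retinaldehyde dehydrogenase, was read in 13 astrocytes, at 177 CPM pooled, and at 0.0106 CPM elsewhere, while Aldh1l1, the folate enzyme often used to mark astrocytes, was read in 46.

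Transcription factors of the glial lineage were higher as a group, 21 of 24 measured with 1 lower and a median log2 ratio of 2.58. Of the 24 measured, 19 were highest in astrocytes of the 7 types. Rfx4, a regulatory factor X protein of neural tissue, stood at 480.4 CPM against 10.9 CPM, and was highest in the E18.5 cells titled mThal (831 CPM). Dbx2, a homeobox gene, stood at 73.4 CPM against 1.61 CPM, Sox2 at 70.9 CPM against 4.66 CPM, and Id4, an inhibitor of bHLH factors, at 71.3 CPM against 4.40 CPM. Rorb, an orphan nuclear receptor, was read in 66 cells and ran from 79.2 CPM in the E18.5 cells titled mThal to 1400.2 CPM in adult visual cortex. Lhx2, a LIM homeobox gene of the telencephalon, stood at 73.1 CPM in P12 visual cortex, 48.1 in P12 hippocampus and 276 in adult visual cortex, and at 0.295 CPM in the E18.5 cells titled mThal and 0.107 CPM in P12 thalamus. Nfia was read in 84 of 85 cells. Genes of radial glia were also higher, 8 of 10 measured and none lower: Fabp7, a brain lipid binding protein, stood at 1366 CPM against 102 CPM and Tnc, the matrix protein tenascin C, at 818 CPM against 26.8 CPM, while Nes, the intermediate filament nestin, was read at 10 CPM or more in 4 astrocytes.

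Receptors and signalling pathways were measured as lists of ligands, receptors and targets. Of G protein-coupled receptors, 17 of 20 measured were higher and 1 lower, with a median log2 ratio of 2.96. Against the same other cells, the set median was -0.13 in adult and -0.90 in E18.5 visual cortex, and 1.57 to 3.36 in the other sets. Ntsr2, a neurotensin receptor, had a log2 ratio of 6.79. Grm3, a metabotropic glutamate receptor, stood at 999 CPM against 56.6 CPM, S1pr1, a sphingosine phosphate receptor, at 936 CPM against 95.7 CPM, and Gabbr2, a GABA-B receptor subunit, at 86.5 CPM against 7.48 CPM. Ednrb, an endothelin receptor, stood at 3902 CPM in astrocytes and 3855 CPM in OPC, and within astrocytes at 8832 CPM in P12 thalamus and 446.5 CPM in adult visual cortex.

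Of the developmental pathways, Hedgehog genes had 7 of 8 measured higher and 0 lower, with a median of 2.35: the receptor Ptch1 stood at 77.1 CPM against 15.3 CPM, the co-receptor Gas1 at 82.3 CPM against 2.60 CPM and the effector Gli3 at 193 CPM against 34.9 CPM, while the ligand Shh had no read in astrocytes. In adult visual cortex Ptch1 and Gas1 stood at 1.02 and 0 CPM, and Gli3 at 435.5 CPM, with a list median of -2.17. Notch genes had 10 of 13 measured higher and 1 lower, with a median of 1.77. The Notch median by set ran from -0.57 in adult visual cortex to 2.13 in the E18.5 cells titled mThal. The receptors Notch1, Notch2 and Notch3 stood at 130.3, 424 and 41.4 CPM against 37.6, 185 and 2.81 CPM, and the target Nrarp at 38.1 CPM with a log2 ratio of 3.70. Dll4, a ligand, counted as higher from 1 cell, which gave 98.1% of its astrocyte reads. BMP genes had 8 of 15 measured higher and 1 lower, with a median of 1.29, led by the receptor Bmpr1b at 228 CPM against 2.25 CPM. The antagonist Chrdl1 stood at 392 CPM in adult visual cortex, at 112 CPM in P12 visual cortex and at 24.9 CPM in P12 hippocampus, with no read in P12 thalamus and 0.0369 CPM in the E18.5 cells titled mThal. FGF genes had 7 of 13 higher and 0 lower. Wnt receptors and modulators had 10 of 17 higher and 2 lower, with Wnt7a, a ligand, at 67.1 CPM against 2.21 CPM. The Wnt median by set was -1.56 in adult and in E18.5 visual cortex, -0.01 in P12 hippocampus, and 0.72 to 1.64 in the other sets.

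Secreted proteins were higher almost throughout. Of 22 measured genes for synapse and matrix proteins, 19 were higher and 0 lower, with a median log2 ratio of 3.28. Sparcl1 (hevin), a secreted protein that promotes synapse formation, stood at 7480.0 CPM against 410.5 CPM and was read in 77 astrocytes, and its relative Sparc, at 1306 CPM, did not exceed the other cells (1588 CPM), with the highest level in microglia. Cpe, a carboxypeptidase of the secretory pathway, stood at 8099.9 CPM against 416 CPM, Pla2g7, a secreted phospholipase, at 1834.5 CPM against 12.4 CPM and Lcat, which esterifies cholesterol in lipoproteins, at 259 CPM against 2.51 CPM. The proteoglycan genes Ncan and Bcan stood at 3394 and 591 CPM against 379 and 94.3 CPM. Hapln1, a link protein of the matrix, was read in 30 cells, at 474 and 485 CPM in P12 visual cortex and hippocampus and 26.9 CPM in P12 thalamus. Thbs4, a thrombospondin, was at least 960.1-fold higher with 3 reads as the floor over the other cells, yet 99.3% of its astrocyte reads came from 1 cell. Among 20 genes of adhesion and contact, 12 were higher and 2 lower, with a median of 1.30. Ptprz1, a receptor phosphatase, stood at 3909 CPM in astrocytes and 3412 CPM in OPC, and F3, tissue factor, at 872 CPM against 19.8 CPM. Of 12 engulfment genes, 8 were higher and 2 lower, with a median of 1.45. That median was -0.15 in the E18.5 cells titled mThal, -1.45 in E18.5 visual cortex and 0.37 to 1.45 in the other sets. The receptor Megf10 stood at 124 CPM against 15 CPM and the bridging protein Mfge8 at 2951 CPM against 113 CPM. Mertk, a receptor kinase shared with microglia, stood at 280 CPM against 134 CPM, with 603 CPM in microglia.

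**Figure D3:**
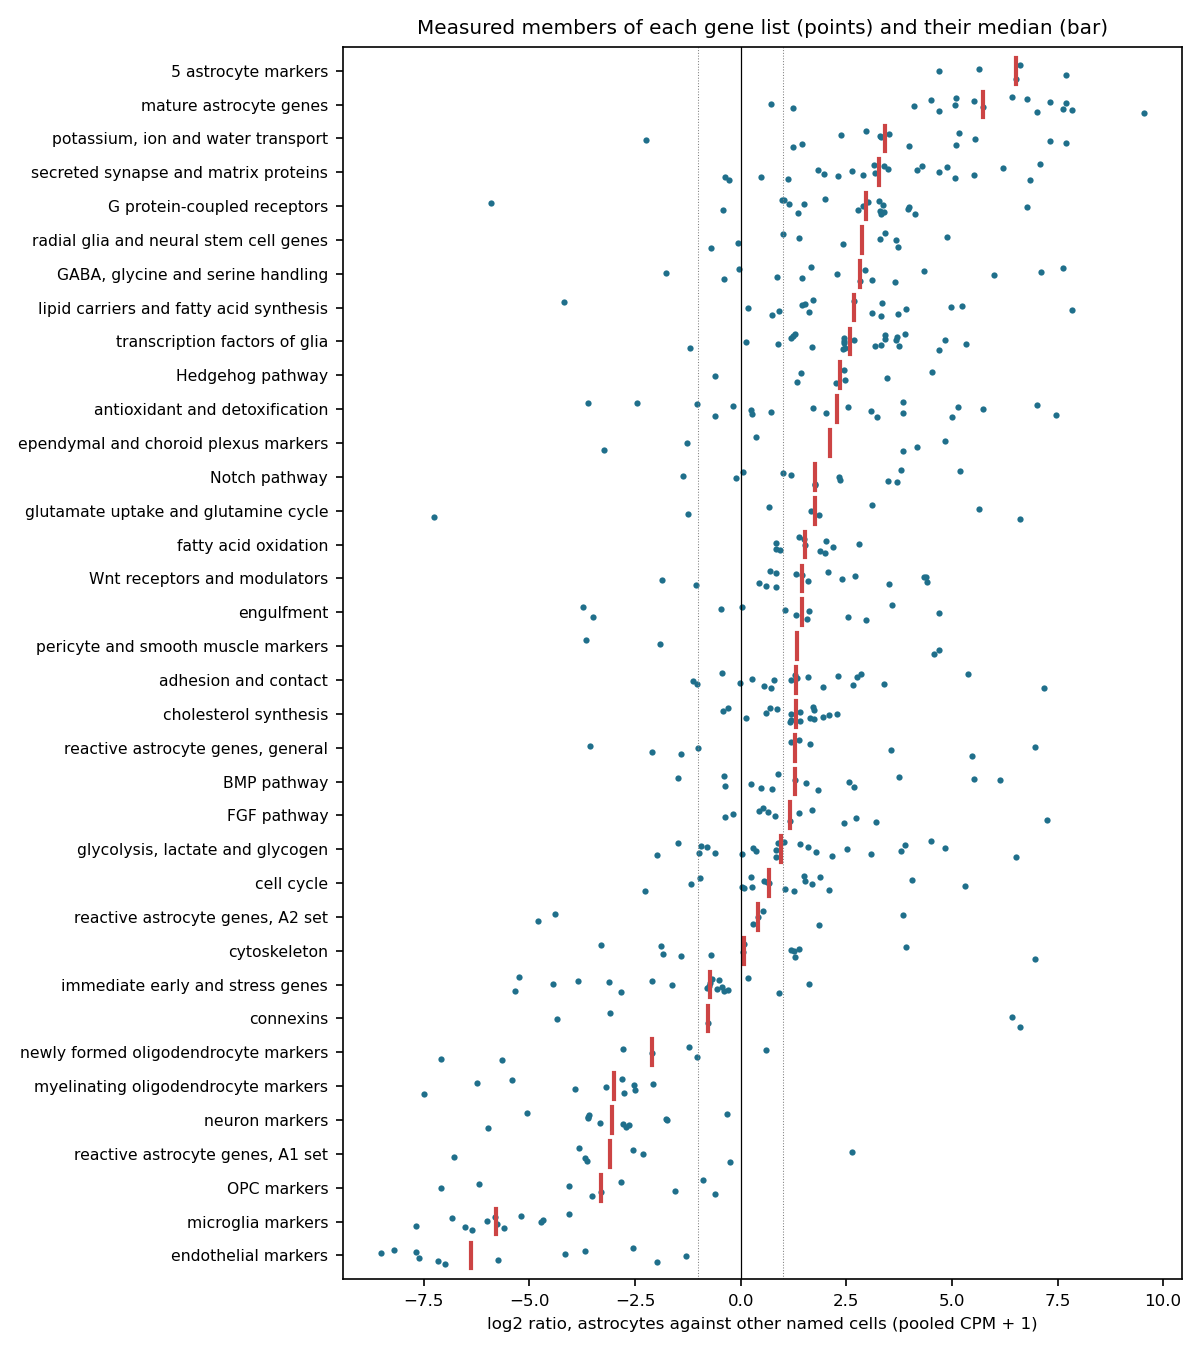
Log2 ratio of astrocytes against the other named cells (pooled CPM + 1) for each measured member (points) of each gene list (rows), with the list median (red bar); dotted lines mark a 2-fold difference. Astrocyte lists sit to the right, up to a median of 6.52 for the 5 markers, and lists of the other cell types to the left, down to -6.37 for endothelial markers.

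Genes of mature astrocytes were 16 of 17 measured higher and 0 lower, with a median log2 ratio of 5.73. That median was 4.43 in the E18.5 cells titled mThal, 6.56, 5.08 and 6.32 in visual cortex, hippocampus and thalamus at P12, and 5.93 in adult visual cortex. In the 2 astrocytes of E18.5 visual cortex it was -0.0748. Agt, angiotensinogen, showed how uneven single members were. It stood at 785 CPM pooled over astrocytes and 0.0532 CPM in the other cells, but only 35 cells reached 10 CPM, and its set levels ran from 0 in adult visual cortex through 258 CPM in P12 visual cortex to 2109.6 CPM in P12 thalamus. Gfap, the intermediate filament protein used most to stain astrocytes, was read in 37 of 85 cells, at 737 CPM pooled against 4.94 CPM, and 31.6% of its reads came from 1 cell. S100b, another common stain, was read in 28 cells at 113.5 CPM, below OPC (358 CPM), and its log2 ratio of 1.26 became -0.15 with the 6 other types given equal weight. None of Agt, Gfap and S100b met the core rule.

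Reactive and stress lists were mixed in direction. Of 10 measured general reactive genes, 6 were higher and 4 lower, with a median of 1.30 for the pooled astrocytes. No single set reached that value against the same other cells. The set median was 0.35 in the E18.5 cells titled mThal and 0.42 in P12 thalamus. It was -0.45 in P12 visual cortex, -0.27 in P12 hippocampus, -1.74 in adult and -1.85 in E18.5 visual cortex. Of 8 measured genes of the A1 set, which is induced by inflammation, 1 was higher and 6 were lower, with a median of -3.09. Of 7 measured genes of the A2 set 2 were higher and 2 lower, near the shares over all measured genes (24% and 25.9%). Another setting took both the astrocytes and the other cells as a mean over sets, with equal weight for each set. It used only the sets with 10 or more astrocytes, and so left out E18.5 visual cortex, which held most labelled neurons. In that setting the median of the general list went from 1.30 to -0.77. Which of these changes moved it was not tested. Of 20 immediate early and stress genes, 1 was higher and 8 lower, with a median of -0.73. Fos, an activity and stress response gene, was nevertheless read in 71 of 85 astrocytes, at 3488 CPM against 1857 CPM, and Egr1 in 53, at 1914 CPM against 2519 CPM. The sum of this list ran from 1.39 CPM in 1 astrocyte through a median of 5775 CPM to 54091 CPM.

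Cell cycle genes came mostly from 2 astrocytes. Cell 53 of P12 hippocampus had 17 of the 20 genes at 10 CPM or more, with a sum of 17222 CPM, and cell 4 of P12 visual cortex had 16, with 20396 CPM. No other astrocyte had more than 7. Over all astrocytes 9 of 19 measured genes were higher and 2 lower, with a median log2 ratio of 0.67. Without these 2 cells 2 of 17 were higher and 10 lower, with a median of -1.22. Only astrocytes were removed here, and the other cells kept theirs with cell cycle genes. At 10 CPM or more, single cells held up to 18 of these genes in neurons, 15 in microglia and 10 in OPC. Both cells carried Slc1a3 (5777 and 5559 CPM) and Sox9 (1023 and 368 CPM), and neither had Aqp4 above 1 CPM. They had 25 and 28 core genes at 10 CPM or more, below the medians of their sets, 40 and 44.

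Members of several gene families were highest in different cell types. Of the aldolases, Aldoc was highest in astrocytes, while Aldoa, at 937 CPM in astrocytes, was highest in endothelial cells (1041 CPM). Of the SLC1 transporters, Slc1a2, Slc1a3 and Slc1a4 were highest in astrocytes, and Slc1a1 stood at 0.207 CPM in astrocytes against 551 CPM in newly formed oligodendrocytes. Of the SOX factors, Sox9, Sox2 and Sox8 were highest in astrocytes, and Sox10, which specifies oligodendrocytes, stood at 23.1 CPM in astrocytes and 468 CPM in newly formed oligodendrocytes. Of the NFI factors, Nfia was highest in astrocytes (1984 CPM, with 1092 CPM in myelinating oligodendrocytes), and Nfib and Nfix were highest in neurons (3752 and 813 CPM). Of the lactate dehydrogenases, Ldhb was highest in astrocytes (1049.5 CPM) and Ldha in endothelial cells (972 CPM). Fgfr1 and Fgfr3 were highest in astrocytes and Fgfr2 in myelinating oligodendrocytes.

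**Figure D4:**
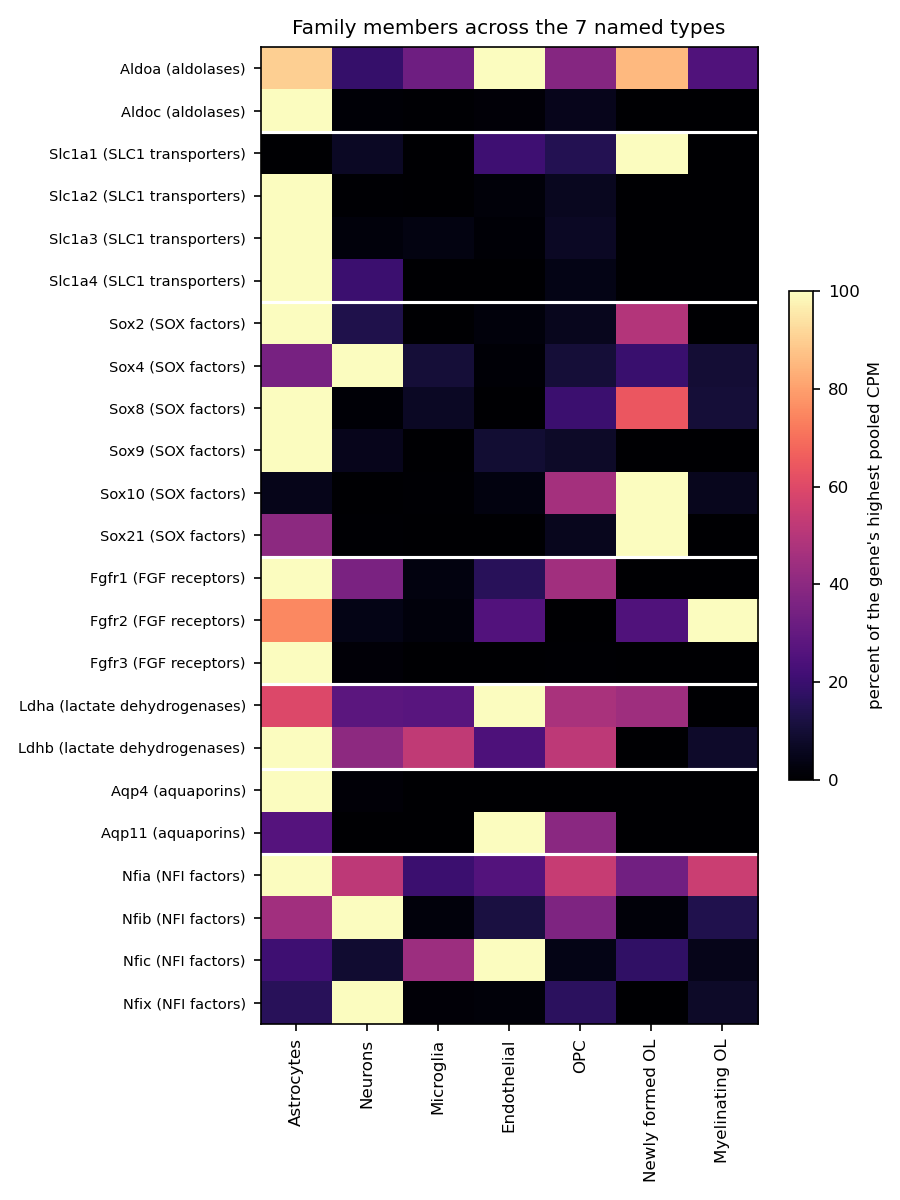
Pooled CPM of measured members of gene families (rows) in the 7 named types (columns), as a percent of that gene's own highest type, so that rows are not compared with each other. Within the SLC1, SOX, FGF receptor and NFI families some members peak in astrocytes and others in another type, such as Slc1a1 and Sox10 in newly formed oligodendrocytes.

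Markers of the other classes were low. All 12 microglia markers, all 12 endothelial markers and all 10 myelinating oligodendrocyte markers were lower in astrocytes, with median log2 ratios of -5.79, -6.37 and -3.00. Of the neuron markers 11 of 12 were lower of the OPC markers 7 of 9 measured, and of those of newly formed oligodendrocytes 6 of 7 measured. The endothelial receptor Tek and the myelin gene Opalin had no read in astrocytes, at least 6642-fold and 2537-fold lower than in the other cells with 3 reads as the floor. Cell 24 of P12 visual cortex had 12 of 12 microglia markers at 10 CPM or more together with all 5 astrocyte markers. For Cx3cr1, the fractalkine receptor of microglia, 3 astrocytes reached 10 CPM, and 1 cell gave 88.6% of the reads. Map2, a dendrite gene, was the exception among neuron markers, with 69 of 85 astrocytes at 10 CPM or more and 316 CPM pooled against 397 CPM. Tcf7l2, listed for newly formed oligodendrocytes, was read in 73 astrocytes at 546 CPM, where newly formed oligodendrocytes had 4588 CPM. Pericyte markers were 2 higher and 2 lower of 4 measured. Vtn, vitronectin, gave 257 CPM, 67.1% of it from 1 cell, and the list median of 1.33 was -2.23 when each cell was given equal weight. Of 6 measured ependymal and choroid plexus markers, Ccdc153, Tmem212 and Rarres2 were higher and 2 were lower, and 1 cell gave 99.9% of the astrocytes' reads of Ttr. The list median of 2.11 fell as low as -0.86 with 1 astrocyte left out. Over the astrocytes the summed level of this list had a median of 0 CPM.

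A few genes were lower in astrocytes than in every other type. Among genes at 50 CPM or more in each other type, the lowest was Rap1gds1, which regulates small GTPases, at 14.1 CPM in astrocytes and at least 83.3 CPM in the other types. Next were Zfhx3, a homeobox gene, at 16.3 against 53.8 CPM, and Larp4b, an RNA binding protein, at 53.9 against 134 CPM. Actb, cytoplasmic actin, was read in all 85 astrocytes at 5135 CPM, below the 8099.6 CPM of OPC, the lowest of the other types. Tuba1a, an alpha tubulin, stood at 1942 CPM against 7226 CPM in the other cells, and the cytoskeleton list as a whole had 6 higher and 4 lower of 13.

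The spread between astrocytes was large even for core genes. The coefficient of variation (CV, the SD of CPM over 85 cells divided by the mean) had a median of 1.49 over the 52 core genes and ran from 0.760 to 3.97, beside a median of 2.82 over the 4307 genes at 50 CPM or more. A core gene was at 10 CPM or more in a median of 61.5 cells, beside 26 cells for all 4307 genes, and a read in at least 50% of cells was part of the core rule. Of the core genes Slc1a3 had the lowest CV, 0.760, followed by Gja1 (0.811), Sfxn5, a mitochondrial carrier of the sideroflexin family (0.866), Aldoc (0.895), Clu (0.987) and Sox9 (0.996). The highest were those of Vegfa, vascular endothelial growth factor A (3.97), Nwd1 (2.93), Slc7a10 (2.29), Slc1a4, a neutral amino acid transporter (2.21), Slc7a11, the cystine transporter (2.20), and Tnc (2.19). For Vegfa 59.9% of all astrocyte reads came from 1 cell. By breadth, 8 core genes were at 10 CPM or more in at least 90% of astrocytes, 19 in at least 80%, 29 in at least 70% and 48 in at least 50%.

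**Figure D5:**
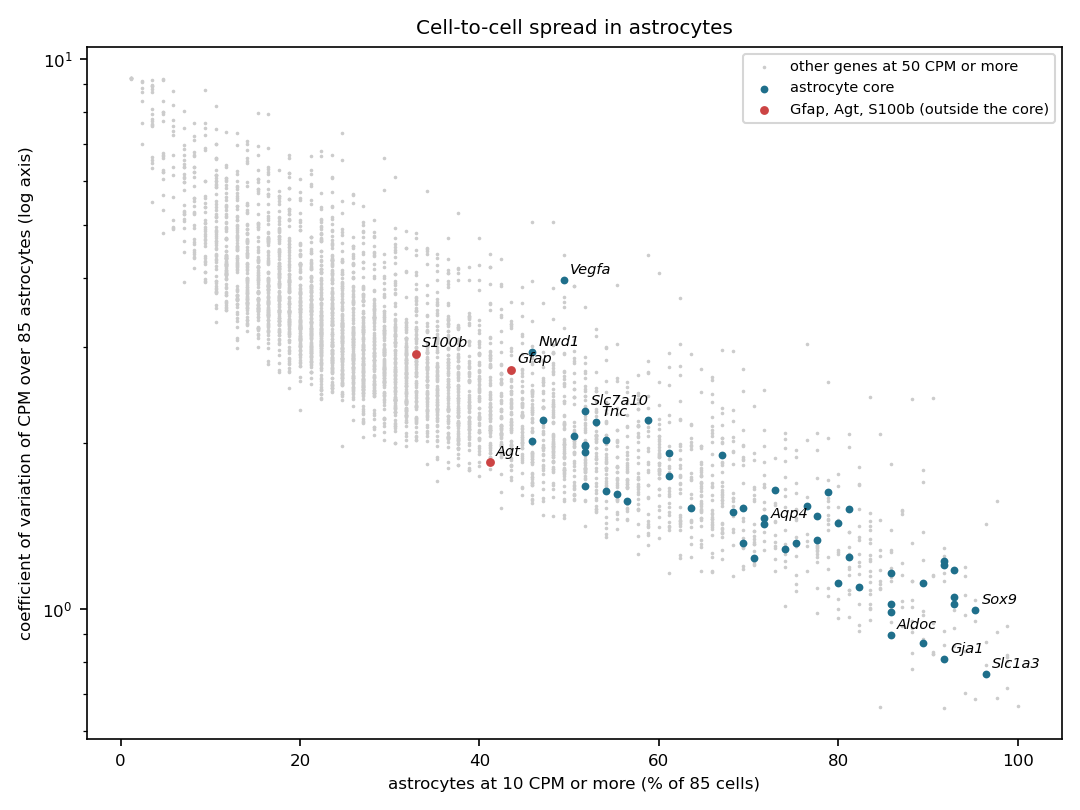
Each point is a gene at 50 CPM or more in astrocytes; the x axis is the percent of 85 astrocytes at 10 CPM or more and the y axis (log) the CV of CPM over them. Core genes (blue) have a median CV of 1.49, with Slc1a3 at 0.760 and Vegfa at 3.97, while Gfap, Agt and S100b (red) were read in fewer than 50% of cells.

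The spread differed between sets. Over the core genes the median CV was 1.02 in P12 thalamus, 1.17 in P12 visual cortex, 1.37 in P12 hippocampus, 1.57 in adult visual cortex and 1.64 in the E18.5 cells titled mThal. After thinning to 350000 reads, a core gene had a read in a median of 87.5%, 85.7%, 81.6%, 70% and 58.8% of the cells of these sets in the same order. Of the 9 astrocytes with markers of another class, 5 were among the E18.5 cells titled mThal and none in P12 thalamus. Without these 9 cells the median CV over all sets was 1.36. For the median core gene 13.9% of the sum of squares of log2(CPM + 1) lay between the 5 sets, beside 6.97% for all 4307 genes, so most of the spread lay between cells of the same set. The share was largest for Atp1b2 (34.9%), Aqp4 (32.1%), Gja1 (27.6%), Acsbg1 (26.9%) and Slc6a11 (23.9%), and smallest for Dtna, dystrobrevin alpha (0.193%). Atp1b2 ran from 772 CPM in the E18.5 cells titled mThal and 1172 in adult visual cortex to 4700.3 CPM in P12 thalamus. The pooled level of Dtna still ran from 363 CPM in P12 thalamus to 1379.8 CPM in adult visual cortex.

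Core genes varied together only weakly from cell to cell. Within sets, over 85 cells, the Pearson correlation of log2 levels had a median of 0.20 over the 1326 pairs of core genes, with 5% of pairs below -0.04 and 5% above 0.45. The highest were those of Aldoc with Clu (0.71), Grm3 with Fgfr3 (0.65) and Ttyh1 with Aldoc (0.62). Among the 5 markers, Aldoc and Aqp4 had 0.52, and Gja1 and Sox9 -0.0048. Both genes of a pair share a cell's library and its depth, and low levels are sparse, so these values are a description without a test.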

How the data were processed

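Full-length cDNA libraries of single cells, captured on microfluidic chips and amplified from polyadenylated RNA, were sequenced. The authors aligned the reads with STAR to mm10 and counted them per gene with HTSeq 0.6.0, per the submitters' processing notes, and the deposited values are raw read counts for 22074 genes and 333 cells. The strand setting is not given in the sources used here, so overlapping genes cannot be told apart. Symbols were matched to current names (21274 directly, 743 by synonym, 57 kept as given), and 4850 genes had no read. A pair of microglia libraries with a correlation of 0.994 (next pair 0.638) was counted as 1 cell.

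Counts were summed over cells and divided by the total (pooled CPM). Ratios used log2(CPM + 1), with 10 CPM in either arm needed for a gene to be measured. Each group is 1 sample, so no test was made. Where an arm had no read, 3 reads over the arm served as the floor. For shares of cells in the core rule, each cell was thinned to 350000 reads with a fixed seed. A cell was taken to carry markers of another class when their sum reached 25% of that class's median. Genes are named from 44 lists (579 entries, 2 not found), from the core, and from the genes lowest against all types. Members and lists were chosen with earlier results of these data known. Alternatives were other scalings (TMM in edgeR 4.0.16, median of ratios in DESeq2 1.42.0), thresholds, and cells or sets left out. Scripts used Python 3.11.15, numpy 2.4.6, pandas 2.3.3, scipy 1.17.1 and matplotlib 3.10.9, with R 4.3.3, and were tested on simulated data. A few list and core genes are counted but not reported here by name.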

Additional observations from a re-analysis of the deposited data

Results flagged for a closer look

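In adult visual cortex, 1 of the 10 astrocytes stood apart from the others in the number of core genes at 10 CPM or more. Cell 30 had 8 such genes, and the next lowest cell had 29, a gap of 0.618 of the range of the group. It also held 10457 CPM of pericyte markers, with 1 of 8 at 10 CPM or more, and only 2 of the 5 astrocyte markers. Only these 10 adult cells were screened this way, for 9 quantities, and the astrocytes of the other sets were not. Chance alone would mark about 1 in 20 such quantities, and those of the same cells are not independent.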

How the results depend on the processing

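The genes in the core numbered 79 without the E18.5 cells titled mThal, 28 at 4-fold and 24 when read in 80% of cells, and 49 to 55 with each astrocyte left out in turn. Genes higher and lower numbered 1288 and 1295 at a minimum of 50 CPM, 1261 and 1576 at 4-fold, and 2522 to 2582 and 2741 to 2822 with each astrocyte left out. Astrocytes with markers of another class numbered 28 at 10% of the median and 5 at 50%. A list median counted as close within the SD of its medians over the 5 sets, and the ratio of a gene within 2-fold. That SD reached 2.91 in log2 for the cell cycle list, so its change from 0.67 to -1.22 counted as close. Of 968 list medians, 916 stayed close to the value given, 48 moved, and 4 that were 2-fold or more changed sign. For the 7888 log2 ratios of genes these numbers were 7449, 420 and 19. The cause of these changes was not tested.

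Log2 values of 2-fold or more that changed sign were as follows. With the mean CPM of each cell, the pericyte list had -2.23 and Elk4 0.15, and with no minimum that list had -0.11. Without all named cells with markers of another class, Bcas1 had 1.39, Fyn 0.0244, Mcm2 0.0799 and Shmt1 0.0975. Without E18.5 titled mThal, Acvr2a had -1.95 and Otx2 -1.51. Without P12 visual cortex, Ccnb1 had -0.11, Cenpf -0.45, Gprc5b -0.75, Mki67 -0.0821 and Nqo1 -1.10. With equal weight for the 6 other types, Ncam2 had -0.0931 and S100b -0.15. With both arms averaged over the sets with 10 or more astrocytes, the general reactive list and Cd44 had -0.77. In that setting Cdh4 had 2.13, Nfix 0.67, Rbfox3 1.75 and Socs3 -0.0994. The ependymal list ran from -0.86 to 2.14 with each astrocyte left out. List medians under 2-fold also crossed 0. Cell cycle (0.67) ran down to -1.22, the A2 set (0.405) to -4.39 and cytoskeleton (0.0797) to -0.20, and connexins (-0.77) up to 6.42 and NFI factors (-0.13) to 0.91. No paired analysis was possible because the replicate numbers only number the cells of a set and pair none of them. Cells per set, from 2 to 21, and the lower depth and fewer genes of adult cells limit the shares of cells with a gene.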
